A study of Mus musculus with 71 samples.

Results

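The m6A writer complex and the m6A demethylases were followed in male mouse embryonic stem cells (mESC) in which the methyltransferase itself was inhibited. The set was chosen by gene name and holds 10 genes, the writer subunits Mettl3, Mettl14, Wtap, Virma, Zc3h13, Rbm15, Rbm15b and Cbll1 and the demethylases Fto and Alkbh5. Of these, 9 are among the 21527 genes of the tables, and all 9 passed the filter on low counts that left 12659 genes for testing. Rbm15b was not analysed here. The cells were labelled with 100 µM 4-thiouridine (s4U), a uridine analogue, for 24 h and then chased with uridine in 100-fold excess, with 20 µM STM2457, a small-molecule inhibitor of Mettl3, or with 0.2% DMSO, either of them given from 6 h ahead of the chase until harvest. Samples were taken after 0, 1, 1.5, 2.3, 3.5, 5.3, 8 and 12 h of chase, with 4 libraries per treatment and time (3 for STM2457 at 3.5 h), beside 4 libraries per treatment from cells without s4U. The hours of chase come from the scheme of the study, since the sample labels number the time points only. The study states that its replicates are independent biological replicates, while the labels only number them, and the p-values measure the spread between these libraries.

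In SLAM-seq, s4U in RNA is alkylated and then read as C in place of T, so that the T-to-C conversion rate of a transcript measures its labelled share, and the loss of that rate during the chase follows the decay of the RNA made before it. N6-methyladenosine (m6A) is placed on nascent mRNA by a core of Mettl3, which carries the catalytic site, and Mettl14, which holds the RNA, together with an associated complex of Wtap, Virma, Zc3h13, Cbll1 (Hakai) and the RNA-binding adapters Rbm15 and Rbm15b. Fto and Alkbh5 remove methyl groups from adenosines. The mark promotes the decay of many of the mRNAs that carry it.

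Mature writer and demethylase mRNAs hold the short sequence GGAC followed by A, C or T, in which m6A is often placed. It is shown for the catalytic pair and for the 5 members whose read counts were higher with STM2457, as the occurrence nearest to the stop codon in the annotated transcript with the longest coding sequence (GENCODE, build GRCm38), with the motif in capitals and 10 bases on each side, 5′ to 3′:
Mettl3: caccttaagaGGACTgtttacgcaa
Mettl14: cccaccccagGGACTggcagttgtc
Wtap: agaatggcttGGACTcaaatgtaaa
Zc3h13: tggcaaattaGGACCgtgcagtatc
Rbm15: aagctctaatGGACCtttttgaaga
Cbll1: cccactacctGGACCgcatcatcca
Alkbh5: tgccctcttgGGACTctggctaatc

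These windows lie in the 3′ UTR at chr14:52294908-52294932 for Mettl3, chr3:123369253-123369277 for Mettl14, chr3:107326243-107326267 for Rbm15 (all 3 on the minus strand) and chr11:60554423-60554447 (plus strand) for Alkbh5. They lie in the last part of the coding sequence at chr17:12967490-12967514 (minus) for Wtap, chr14:75343716-75343740 (plus) for Zc3h13 and chr12:31487312-31487336 (minus) for Cbll1. The motif (GGACN with N not G), searched on the transcript strand only, where its matches cannot overlap, was found in 98.47% of 20281 protein-coding transcripts, so its presence does not set the members apart. The density was 5.07 per kb in Rbm15, 4.72 in Zc3h13, 4.44 in Mettl3, 4.19 in Alkbh5, 3.40 in Wtap, 3.33 in Cbll1 and 3.28 in Mettl14, against a median of 3.54 (quartiles 2.46 and 4.79) over all these transcripts. In the 3′ UTR alone the order was another, at 1.16, 1.51, 7.09, 3.17, 4.46, 2.56 and 1.84 per kb for the same genes in turn. Rbm15, Zc3h13 and Mettl3 each had 1 match there. A match is a description of the letters. Methylation was not measured in these libraries.

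The libraries held 4539726 to 7368244 counted reads in DMSO (36 libraries) and 4704543 to 6804970 with STM2457 (35 libraries). Of 10 mESC markers, 9 are in the tables, all with a median above 1 read per 1000000 reads of a library (RPM), and their summed level was 3790 to 5548 RPM in DMSO and 4051 to 5159 RPM with STM2457. The 6 fibroblast markers summed to 4.09 to 21.2 RPM in DMSO and 5.51 to 23.2 RPM with STM2457, and the 6 primitive endoderm markers to at most 13.03 and 9.66 RPM, with 4 of the 6 at a median of 0 in each list. Of the neuroectoderm markers, 2 of 5 are in the tables and summed to at most 31.5 and 21.4 RPM, and the 4 mesoderm markers summed to at most 95.0 and 60.3 RPM. The first principal component of the log2 values of CPM (RPM after TMM scaling of the library totals) held 14.01% of their variance and split libraries within groups. Scores on this axis, in units of its SD over the 71 libraries, ran from -0.40 to 2.77 in the 4 DMSO libraries at 1 h and from -0.08 to 2.89 in the 4 STM2457 libraries at 1 h. The mean score was lower with STM2457 at 0, 1.5 and 5.3 h, by 0.79, 1.78 and 1.49, and in the unlabelled cells, by 0.98, and at the other times the difference lay between -0.35 and 0.22. Of the 12 libraries with a score above 1, 9 are DMSO libraries. Member differences over the whole chase are therefore also given with this axis as a covariate where that changes them.

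The main comparison asked whether the mRNAs of the writer and its opponents differ between cells with inhibited and with active Mettl3. Averaged over the 8 time points, 5 of the 9 members rose with STM2457 and none fell (edgeR quasi-likelihood test, Benjamini-Hochberg adjusted p below 0.01 over all genes), where 26.5% of all tested genes passed, 13.9% as higher and 12.6% as lower. The 5 were the adapters and scaffold subunits Wtap, Rbm15, Zc3h13 and Cbll1 and the demethylase Alkbh5. The catalytic pair Mettl3 and Mettl14, the scaffold Virma and the demethylase Fto did not pass. The median log2 fold change of the 9 members was 0.17, against -0.01 over all 12659 genes. TMM scaling takes most genes as unchanged, so the median over all genes is kept small by this scaling. The fold changes are relative to the other transcripts, and no spike-in or set of unmethylated genes was used for scaling. The paper warns that scaling to total abundance can bias values when most genes respond. In bulk RNA a lower share of cells with a transcript and less of it per cell cannot be told apart.

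Wtap, the subunit that binds Mettl3 and Mettl14 and brings them to nuclear speckles (chromosome 17, 12966796 to 12994169, minus strand), had 127 to 183 CPM with a median of 165 in the 32 labelled DMSO libraries and 202 to 353 CPM with a median of 272 in the 31 labelled STM2457 libraries. No library of one treatment reached into the range of the other. At 0 h the DMSO libraries held 178, 149, 161 and 163 CPM and the STM2457 libraries 319, 317, 259 and 293 CPM. At 12 h they held 154, 136, 138 and 127 CPM against 202, 246, 234 and 226 CPM. The fold over the chase was 1.69, with a log2 fold change of 0.76 ± 0.03 (SE) and an edgeR adjusted p of 6.5e-32. Wtap passed at each of the 8 times, with log2 fold changes of 0.68 to 0.93, as did 29 of the 12659 genes in this direction, and it also passed in the unlabelled cells (0.79 ± 0.09, edgeR adjusted p 7.32e-10; 1.73% of genes rose there). The call at 1 h was lost in a fit of that time alone (0.92, edgeR adjusted p 0.0608), in which 0 of all genes passed. Without the libraries over 1 SD on the axis, which leaves 1 library per treatment at 1 h, the log2 fold change there was 0.76. Over members and times, 15 of 72 pairs passed as higher and 0 as lower. The share of all genes that passed as higher was 1.27% at 0 h, 1.11% at 1 h, 4.16% at 1.5 h, 1.26% at 2.3 h, 1.04% at 3.5 h, 2.46% at 5.3 h, 1.79% at 8 h and 3.85% at 12 h. All STM2457 libraries lay above all DMSO libraries in 5.94, 3.39, 11.5, 6.6, 8.56, 8.22, 7.09 and 9.21% of genes at these times. Of the genes tested, 385 had a larger log2 fold change over the chase.

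**Figure D1:**
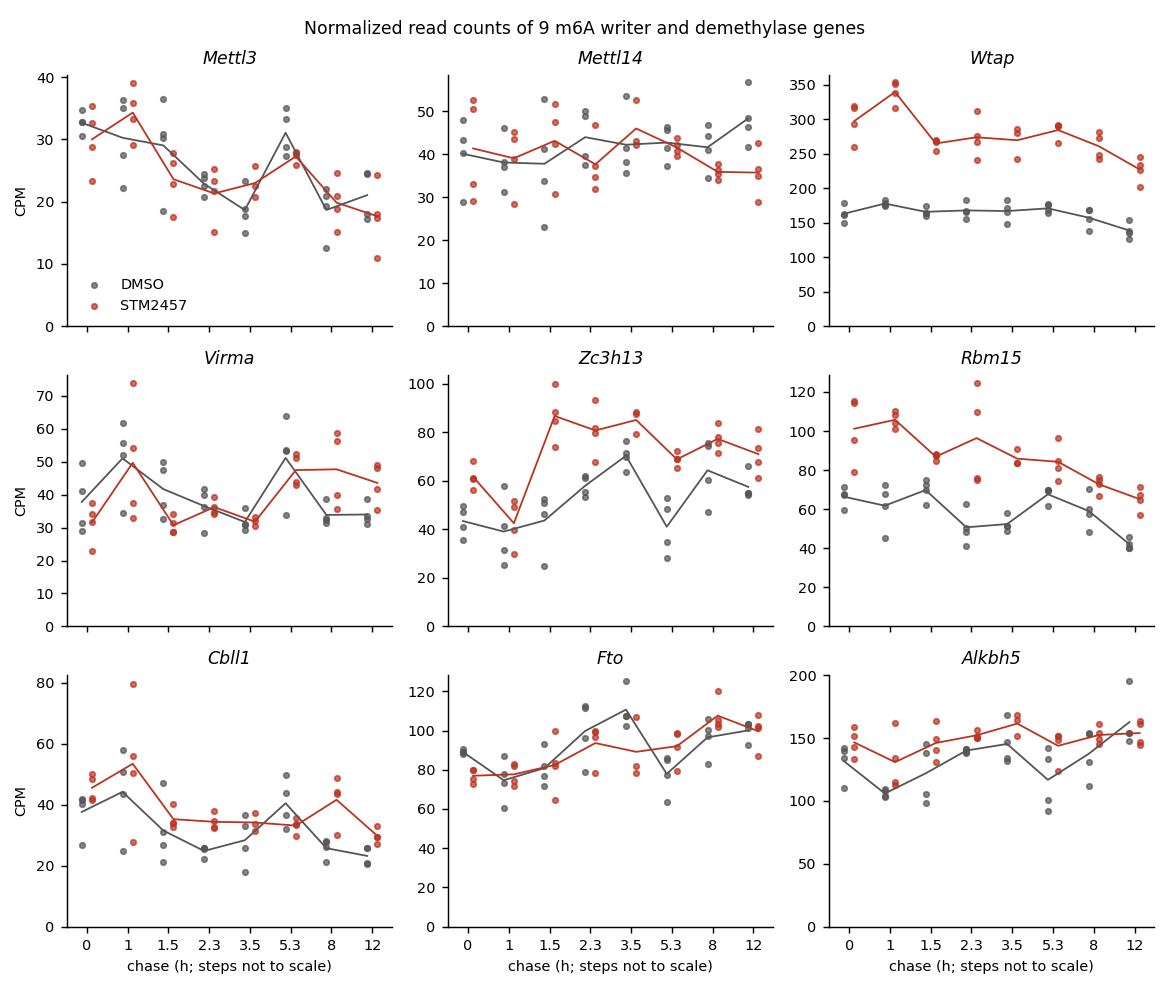
Normalized read counts (CPM, vertical axis from 0) of the 9 genes at each chase time (horizontal axis, h, evenly spaced); points are libraries, grey for DMSO and red for STM2457, and lines join the group means. The Wtap points of the 2 treatments are apart at all 8 times, while those of Mettl3, Mettl14 and Virma overlap at every time.

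Most Wtap reads also mapped elsewhere in the genome, so that the count of this gene is less certain than those of the other members, whose reads were multimapping in at most 0.29% of cases. The share of multimapping reads was 66.6 to 79.1% of Wtap reads in the labelled DMSO libraries and 53.7 to 68.8% with STM2457. Reads mapped to a single position came to 34.1 to 56.6 RPM in DMSO (median 45.4) and to 84.8 to 150 with STM2457 (median 111). Again, the ranges did not overlap. On these reads alone the log2 fold change was 1.29 ± 0.05 (SE), a fold of 2.44, with an edgeR adjusted p of 5.04e-32, so the count over all reads gave the smaller of the 2 values. Multimapping reads were higher with STM2457 too, at 132 to 218 against 95.9 to 139 RPM, with group means 1.26 to 1.60 times those of DMSO at the 8 times.

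**Figure D2:**
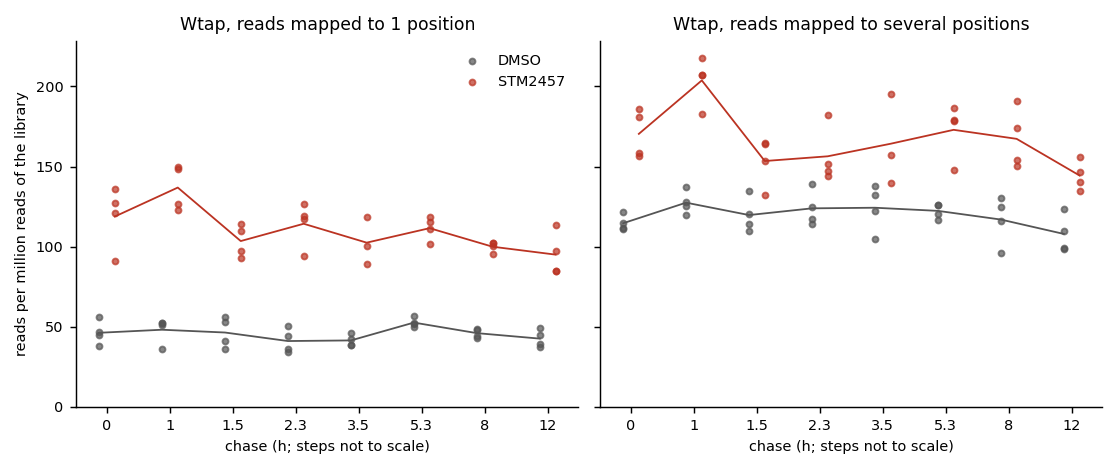
Wtap reads in RPM (vertical axis from 0) that mapped to 1 position (left) or to several (right), by chase time (horizontal axis, h, evenly spaced); points are libraries, grey for DMSO and red for STM2457, and lines join group means. Reads mapped to 1 position lie at 34.1 to 56.6 in DMSO and 84.8 to 150 with STM2457, a wider gap than among multimapping reads.

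Rbm15, an RNA-binding adapter of the complex known for its part in bringing m6A to Xist RNA (chromosome 3, 107325421 to 107333673, minus strand), had 40.2 to 74.9 CPM in DMSO (median 60.7) and 56.96 to 125 CPM with STM2457 (median 84.5). The STM2457 libraries all lay above the DMSO libraries at 7 of 8 times. At 1 h the DMSO libraries held 45.5, 67.6, 61.8 and 72.3 CPM and the STM2457 libraries 104, 110, 101 and 108 CPM. The log2 fold change over the chase was 0.57 ± 0.05 (SE; edgeR adjusted p 9.58e-16), and it was 0.64 ± 0.05 with the library axis as a covariate. At single times Rbm15 passed at 0, 1, 2.3, 3.5 and 12 h, and in the unlabelled cells (0.67 ± 0.14, edgeR adjusted p 0.000963). The call at 1 h was lost in a fit of that time alone (0.76, edgeR adjusted p 0.207). Fits of 1 time also ended those at 0 h (0.60, edgeR adjusted p 0.013) and in unlabelled cells (0.66, edgeR adjusted p 0.0259). Over all genes these fits called 0 in place of 194 at 1 h, 154 in place of 213 at 0 h and 107 in place of 326 in unlabelled cells. Without the libraries over 1 SD on the axis, which leaves 1 library per treatment at 1 h, the log2 fold change there was 1.13. Leaving out single replicates ended the call at 0 h (without DMSO replicate 2, 3 or 4 or STM2457 replicate 2 or 4, 0.53 to 0.63), at 3.5 h (without DMSO replicate 3 or STM2457 replicate 1 or 3, 0.65 to 0.73) and in unlabelled cells (without DMSO replicate 3 or STM2457 replicate 2, 0.576 and 0.575).

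Zc3h13, a zinc-finger subunit that keeps the complex in the nucleus (chromosome 14, 75284373 to 75344426, plus strand), had 24.97 to 76.4 CPM in DMSO (median 53.2) and 29.7 to 99.9 CPM with STM2457 (median 72.1). The ranges overlapped over the whole chase, and the STM2457 libraries were all above the DMSO libraries at 5 of 8 times. At 1.5 h the DMSO libraries held 52.5, 24.97, 50.8 and 46.3 CPM and the STM2457 libraries 84.8, 88.1, 74.0 and 99.9 CPM. The log2 fold change over the chase was 0.46 ± 0.06 (SE; edgeR adjusted p 1.84e-08). Of the 9 members, Zc3h13 followed the library axis most closely, with a Pearson correlation of -0.87 between its log2 CPM and the axis score over the 71 libraries and -0.79 within groups, where libraries share the axis that they helped to define. With the axis as a covariate the log2 fold change was 0.29 ± 0.05 (edgeR adjusted p 1.2e-06). Its calls at single times, 0.99 ± 0.18 at 1.5 h and 0.74 ± 0.18 at 5.3 h, fell at times at which the axis score differed by over 1 between the treatments, and neither remained with the covariate, where they were 0.40 and 0.27. The call at 5.3 h was also lost without DMSO replicate 3 or 4 or without any 1 STM2457 replicate (0.60 to 0.77). It was lost too in a fit of that time alone (0.74, edgeR adjusted p 0.0225), which called 159 genes in place of 563.

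Cbll1, the RING-finger subunit Hakai (chromosome 12, 31484829 to 31499616, minus strand), had 17.9 to 57.8 CPM in DMSO (median 27.2) and 27.2 to 79.5 CPM with STM2457 (median 34.1). The ranges overlapped, and the STM2457 libraries were all above the DMSO libraries at 3 of 8 times. The log2 fold change over the chase was 0.28 ± 0.07 (SE; edgeR adjusted p 0.00219) and no single time passed (0.69 ± 0.21 at 8 h, edgeR adjusted p 0.0402). Its log2 CPM correlated with the library axis at 0.63 over the 71 libraries, in the opposite direction to Zc3h13, and with the axis as a covariate the log2 fold change was 0.48 ± 0.06 (edgeR adjusted p 2.26e-10), and Cbll1 then passed at 1.5, 2.3 and 8 h, at 0.85, 0.60 and 0.60 (edgeR adjusted p 0.000927, 0.009 and 0.00717). At 8 h it also passed in a fit of that time alone (0.69, edgeR adjusted p 0.00656) and without the libraries over 1 SD on the axis (0.70, edgeR adjusted p 0.00277). Without DMSO replicate 3 or without STM2457 replicate 2 it was 0.25 and 0.24, with edgeR adjusted p of 0.0135 and 0.0238.

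**Figure D3:**
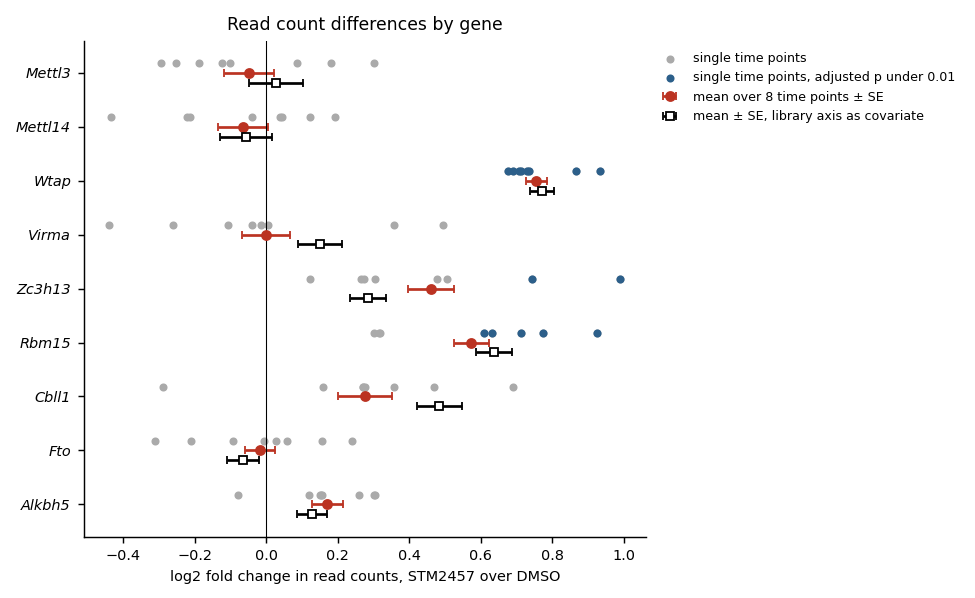
Log2 fold change in read counts, STM2457 over DMSO (horizontal axis), for the 9 genes. Small points are the 8 single time points, blue where the adjusted p was below 0.01; red circles with bars are the mean over the 8 times ± SE, and open squares the same with the library axis as a covariate. Wtap and Rbm15 stand at 0.76 and 0.57, and Mettl3, Mettl14, Virma and Fto between -0.06 and 0.00.

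Mettl3, the catalytic subunit and the target of the inhibitor, had 12.5 to 36.6 CPM in DMSO (median 24.5) and 11.03 to 39.03 CPM with STM2457 (median 24.5). The 2 treatments overlapped at all 8 times. The log2 fold change over the chase was -0.05 ± 0.07 (SE; edgeR adjusted p 0.625), and single times ranged from -0.30 to 0.30. STM2457 acts on the enzyme and not on its mRNA, so this level does not check the treatment. The gene (chromosome 14, 52294841 to 52305128, minus strand) overlaps Tox4 on the opposite strand, and whether reads were counted by strand is not given in the sources used here. Virma and Cbll1 overlap annotated antisense genes, to which the same applies. Fto overlaps antisense and unconfirmed genes, some of the latter on its own strand, where counting by strand would not separate reads. These are overlaps of whole genes, and overlap with the counted 3′ UTR windows was not examined.

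Mettl14, the RNA-holding partner of Mettl3 (chromosome 3, 123368297 to 123386108, minus strand), had 23.1 to 56.8 CPM in DMSO (median 41.5) and 28.5 to 52.6 CPM with STM2457 (median 39.6). The log2 fold change was -0.06 ± 0.07 (SE; edgeR adjusted p 0.511). At 12 h the DMSO libraries held 56.8, 48.5, 41.7 and 46.2 CPM and the STM2457 libraries 36.4, 42.6, 28.9 and 34.9 CPM. These overlap in 1 library of each treatment, and the difference of -0.44 ± 0.20 did not pass (edgeR adjusted p 0.166).

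Virma, the large scaffold subunit (chromosome 4, 11485958 to 11550684, plus strand), had 28.5 to 63.9 CPM in DMSO (median 36.1) and 22.9 to 73.9 CPM with STM2457 (median 36.4). Its log2 fold change over the chase was -0.0003 ± 0.07 (SE; edgeR adjusted p 1), and 0.15 ± 0.06 with the axis as a covariate (edgeR adjusted p 0.0435). At 8 h the DMSO libraries held 31.4, 32.5, 32.9 and 38.7 CPM and the STM2457 libraries 40.03, 56.2, 35.8 and 58.8 CPM, whereas at 1.5 h the log2 fold change was -0.44 ± 0.19. The fitted linear change of the log2 fold change over 12 h was 0.72 ± 0.21 (SE), which missed the threshold (edgeR adjusted p 0.0191). It was 0.46 ± 0.18 with the axis as a covariate (edgeR adjusted p 0.082).

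Of the demethylases, Alkbh5 (chromosome 11, 60536381 to 60558512, plus strand), which acts on m6A in the nucleus, had 91.9 to 195 CPM in DMSO (median 138) and 112 to 169 CPM with STM2457 (median 150). The ranges overlapped, and all STM2457 libraries were above the DMSO libraries at 2 of 8 times. Its log2 fold change of 0.17 ± 0.04 (SE; edgeR adjusted p 0.00106) was a fold of 1.13, the smallest difference that passed, and no single time passed. With the axis as a covariate it was 0.13 ± 0.04 and no longer passed (edgeR adjusted p 0.0117). Without STM2457 replicate 3 or 4 it was 0.16 and 0.14, with edgeR adjusted p of 0.0115 and 0.0122. Fto (chromosome 8, 91313525 to 91668439, plus strand), which demethylates m6A and the cap-adjacent m6Am, had 60.6 to 125 CPM in DMSO (median 89.7) and 64.5 to 120 CPM with STM2457 (median 87.0), with a log2 fold change of -0.02 ± 0.04 (SE; edgeR adjusted p 0.795). A test of Alkbh5 against Fto was not made.

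**Figure D4:**
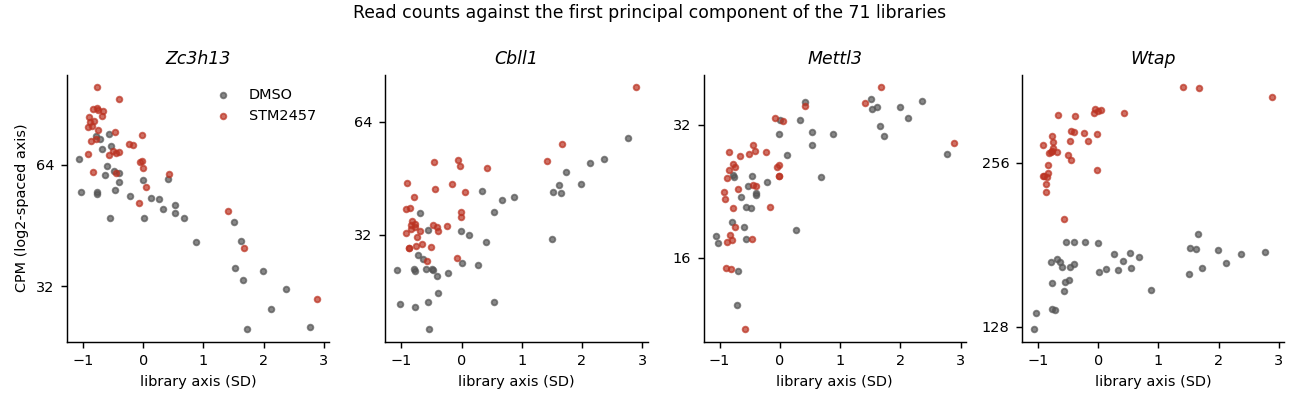
CPM of 4 genes (vertical axis, log2-spaced) against the score of each library on the first principal component (horizontal axis, in SD); points are the 71 libraries, grey for DMSO and red for STM2457. Zc3h13 falls along the axis (Pearson correlation -0.87), Cbll1 and Mettl3 rise (0.63 and 0.65), and Wtap shows a separate band for each treatment (-0.07 over all libraries, 0.18 within groups).

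Over the chase itself, 6 of 9 members drifted in DMSO, where 25.9% of all tested genes did, and 4 of 9 with STM2457, where 13.1% did. In DMSO, as the change per 12 h on the log2 scale, Mettl3 fell by 0.60 ± 0.15 (SE), Cbll1 by 0.62 ± 0.17, Rbm15 by 0.48 ± 0.11 and Wtap by 0.26 ± 0.07, while Zc3h13 rose by 0.46 ± 0.14 and Alkbh5 by 0.36 ± 0.10 (12.4% of genes rose and 13.5% fell). Of 15 alternative settings, Mettl3 passed in 11, Cbll1, Rbm15 and Alkbh5 in 12 each, Wtap in 10 and Zc3h13 in 5. The drift of Wtap was lost with multimapping reads removed (-0.23, edgeR adjusted p 0.124), and that of Cbll1 without DMSO replicate 2 (-0.41, edgeR adjusted p 0.102). None of these 6 members passed with the library axis as a covariate, where 2106 of 12659 genes drifted in DMSO in place of 3274. Zc3h13 and Cbll1 then changed sign (-0.16 and 0.10, edgeR adjusted p 0.393 and 0.712). The mean axis score in DMSO itself was 0.685 at 0 h, 1.59 at 1 h, 1.20 at 5.3 h, -0.68 at 8 h and -0.91 at 12 h. Since the axis varied with chase time, the fit with the covariate cannot separate a drift from the axis. With STM2457, Mettl3 fell by 0.71 ± 0.15, Rbm15 by 0.66 ± 0.11 and Wtap by 0.38 ± 0.07, and Fto rose by 0.42 ± 0.10 (6.01% rose and 7.05% fell). These 4 also passed with the covariate, at -0.60, -0.56, -0.35 and 0.34, and Virma did so as well, at 0.70 ± 0.13 (edgeR adjusted p 9e-06). Of all 12659 genes, 1923 drifted with STM2457 in that fit, in place of 1654. Mettl3 held 32.6, 35.3, 28.8 and 23.3 CPM at 0 h and 11.03, 18.03, 17.4 and 24.2 CPM at 12 h of STM2457, with 1 library at 12 h above the lowest at 0 h. Its call in STM2457 was lost without STM2457 replicate 1 (-0.55, edgeR adjusted p 0.0318), and that of Fto without STM2457 replicate 2 (0.34, edgeR adjusted p 0.0216). None of the 9 members passed the test of the difference in drift between the treatments (3.42% of all genes did). No member passed the threshold when 0 h was set against unlabelled cells, in DMSO (0.513% of all genes) or with STM2457 (0.521%), and the member nearest to it was Fto in DMSO, at 0.37 ± 0.12 (edgeR adjusted p 0.116). The labels do not give the hours of treatment of the unlabelled cells, so this comparison may hold more than the s4U label.

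Decay was read from the conversion rates. At 0 h none of the 9 members passed the test of the rate between the treatments, nor did any other of 9116 genes (0% past an adjusted p of 0.05, with 77 at an unadjusted p under 0.05), with log2 ratios from -0.34 ± 0.24 (Alkbh5) to 0.32 ± 0.34 (Zc3h13). Wtap had 1.31 ± 0.16% converted T in DMSO (SD, n = 4) and 1.22 ± 0.18% with STM2457 (SD, n = 4). The rate averaged over 1 to 12 h and set against 0 h, the label retained, gave no call among the members or any other gene (0% in edgeR, with 307 of 9116 at an unadjusted p under 0.05), which does not show that rates were alike. Wtap had a log2 ratio of 0.70 ± 0.23 in this measure (edgeR, unadjusted p 0.00312, adjusted p 1), against a median over all genes of 0.07.

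Comparisons of the rate over the whole chase and at single later times were added after these results had been seen. Over the 8 times together, the rate of Wtap was higher with STM2457 by 0.51 ± 0.10 on the log2 scale (SE; edgeR adjusted p 2.21e-05), the only one of 9 members that passed where 8.94% of all genes did, and the median over all genes was -0.06. Cbll1 passed too when DMSO replicate 3 was left out (0.83 in place of 0.27, edgeR adjusted p 0.0288). At 5.3 h, Wtap showed 0.0555, 0.0454, 0.0817 and 0.0420% converted T in DMSO and 0.155, 0.294, 0.313 and 0.177% with STM2457. The lowest STM2457 library was above the highest DMSO library, and the unlabelled cells showed 0.058 ± 0.017% in DMSO and 0.048 ± 0.024% with STM2457 (SD, n = 4 each). The DMSO mean at 5.3 h was 0.056 ± 0.018% (SD, n = 4). The log2 ratio at that time was 2.07 ± 0.31 (SE; edgeR adjusted p 1.79e-07; 1.95% of genes passed). With DMSO at the level of unlabelled cells, the size of this ratio depends on that background. It was the largest of the 8 log2 ratios averaged above. The others ran from -0.10 at 0 h to 0.77 at 12 h, and none of them passed. The rates of Wtap include the multimapping reads, since conversions were deposited over all reads of a gene. No gene passed at 1, 1.5, 2.3 or 3.5 h (0%), and at 8 h 5.13% of genes did but no member. Here Rbm15 rested on DMSO replicate 3, with 0.0202, 0, 0.214 and 0.0410% in DMSO and 0.0115, 0.324, 0.115 and 0.109% with STM2457. Its log2 ratio was 1.07 ± 0.55 (edgeR adjusted p 0.241), and 2.77 without that replicate (edgeR adjusted p 0.00936). At 12 h, leaving out the same replicate number made Wtap (1.31 in place of 0.77, edgeR adjusted p 0.0483) and Cbll1 (3.92 in place of 0.23, edgeR adjusted p 0.0149) pass. Cbll1 had 0, 1, 22 and 0 conversions in the 4 DMSO libraries at that time. Alkbh5 was lower with STM2457 at 12 h (-1.21 ± 0.36, edgeR adjusted p 0.0141; 10.5% of genes passed), at 0.132, 0.159, 0.179 and 0.057% in DMSO and 0.053, 0.019, 0.048 and 0.101% with STM2457. At this time both were near the unlabelled cells, at 0.083 ± 0.043% and 0.054 ± 0.031% (SD, n = 4 each), and the call was lost without DMSO replicate 3 or STM2457 replicate 2 (-1.02 and -0.94, edgeR adjusted p 0.0838 and 0.102). It was also lost with the library-wide rate removed (-0.94, edgeR adjusted p 0.0878), a rate that was 0.279% in DMSO and 0.223% with STM2457 at 12 h.

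Half-lives were fitted to the rates after the unlabelled level was subtracted. They were 2.296 h in DMSO and 3.41 h with STM2457 for Wtap, 2.25 and 3.46 h for Alkbh5, 1.61 and 1.94 h for Cbll1, and 4.18 and 4.98 h for Fto. Mettl3 had 3.89 and 2.44 h, Virma 4.35 and 3.93 h, and Zc3h13 3.79 and 3.37 h. Rbm15, at 2.76 and 2.71 h, and Mettl14, at 1.81 and 1.83 h, were the nearest to equal. Over 7363 transcripts the medians were 3.19 and 3.45 h, and 56.7% had the longer half-life with STM2457. The increase was larger than that of Wtap in 14.8% of transcripts and larger than that of Alkbh5 in 12.98%.

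For a spread, libraries with the same replicate number were joined into 4 series per treatment, of which STM2457 series 4 has no 3.5 h. In read counts the numbers showed little link between libraries across times on average. Deviations from the group means, over 8283 genes, correlated at 0.017 on average in same-numbered and -0.006 in other pairs of libraries in DMSO. With STM2457 these were 0.026 and -0.009. In the conversion rate over all genes, DMSO number 1 was the lowest at 0, 1, 1.5, 2.3 and 3.5 h but not later. STM2457 number 1 was the lowest at 0, 1.5, 2.3 and 8 h. A link through conversion rates was not tested, and the tests below hold for this joining only. The half-life of Alkbh5 was 2.42, 1.61, 2.73 and 2.45 h in DMSO and 3.07, 4.00, 3.41 and 3.02 h with STM2457. All 4 STM2457 values were above the DMSO values, which gave the smallest p that an exact permutation test of 4 against 4 allows (two-sided, 0.0286). In limma over 5741 transcripts the log2 ratio was 0.57 ± 0.25 (SE, adjusted p 0.698). Half-lives are set against the rate at 0 h, which for Alkbh5 was 1.62 ± 0.25% in DMSO and 1.28 ± 0.12% with STM2457 (SD, n = 4 each). The rate of Alkbh5 over the 8 times together was not higher with STM2457, at a log2 ratio of -0.05 ± 0.10 (SE; edgeR adjusted p 0.846). For Wtap the 4 series gave 1.81, 3.08, 2.83 and 1.78 h in DMSO and 3.02, 3.27, 5.43 and 2.34 h with STM2457. These overlap, and series 3 with STM2457 exceeded the residual limit of 0.3, at 0.316 (exact permutation test, two-sided p 0.171; limma adjusted p 0.796). No transcript passed limma (405 of 5741 at an unadjusted p under 0.05), and the other 7 members had exact permutation p of 0.4 to 1. In all, 11 of the 72 series fits of the members exceeded the limit and were kept, among them 3 of 8 for Mettl3.

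The exponential curve described the members' label only in part. The share of label left after 3.5 h in DMSO was above the fitted curve for all 9 members, with a median of 50.2%, and after 5.3 h it was below the curve for 8 of 9, with a median of 6.43%. With STM2457, 5 of 9 members were above the curve at 3.5 h and 1 of 9 at 5.3 h, where the median was 15.9%. In DMSO the rate of Mettl3 was 1.28 ± 0.24% at 0 h, 1.33 ± 0.55% at 3.5 h and 0.13 ± 0.12% at 5.3 h (SD, n = 4 each). Over all genes together the rate went from 1.01 to 0.533% between these times in DMSO and from 0.927 to 0.526% with STM2457. Whether this step comes from the chase or from the libraries was not tested.

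**Figure D5:**
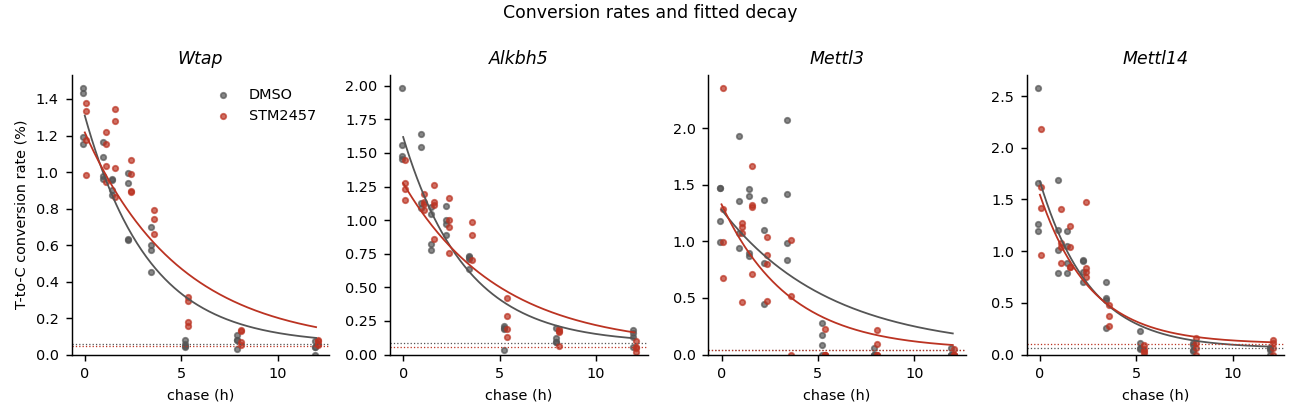
T-to-C conversion rate (%, vertical axis) against chase time (h, horizontal axis) for 4 genes; points are libraries, grey for DMSO and red for STM2457, curves are the fitted exponential decays from the mean rate at 0 h, and dotted lines the mean of the unlabelled cells. At 5.3 h the points lie below the curves in all 4 panels, and for Wtap the STM2457 points lie above the DMSO points.

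The genes around the complex were taken as lists, which were chosen with earlier results of these data known. Of 24 tested genes of the m6A pathway other than the members, 8 rose with STM2457 and 3 fell over the chase, and 13 did not pass, beside 13.9% higher and 12.6% lower of all genes. Among 13 readers, which bind m6A or are bound to its sites, 5 rose and 1 fell. The nuclear reader Ythdc1 rose by 0.79 ± 0.05 (log2, SE), from a median of 61.5 to 107 CPM, and the cytoplasmic readers Ythdf2, Ythdf1 and Ythdf3 by 0.72 ± 0.07, 0.49 ± 0.04 and 0.33 ± 0.07. Igf2bp2, which binds and stabilizes mRNAs, rose by 0.33 ± 0.05, and the helicase Ythdc2 was lower by 0.35 on the log2 scale (-0.35 ± 0.11, 9.88 and 7.62 CPM, edgeR adjusted p 0.00932). Among 6 other RNA adenine methyltransferases and partners, Mettl16, which methylates U6 RNA and the mRNA of Mat2a, rose by 0.35 ± 0.04, and 2 fell, among them Mettl5, a methyltransferase of ribosomal RNA (-0.38 ± 0.08). Of 3 genes of S-adenosylmethionine supply 1 rose, and of 2 tested writer-linked factors 1 rose. With the library axis as a covariate, Ythdf3, Ythdc2 and Mettl5 no longer passed (edgeR adjusted p 0.0517, 0.168 and 0.0164), nor did the other methyltransferase gene that was lower. Lower calls were gained by the readers Hnrnpc (-0.24, edgeR adjusted p 9.09e-11) and Prrc2a (-0.25, edgeR adjusted p 1.01e-07) and by Trmt112, the partner of Mettl5 (-0.18, edgeR adjusted p 2.5e-05), named for this after their values were seen. With the covariate 7 of the 24 were higher and 3 lower, and of the 13 readers 4 higher and 2 lower. In that fit 3399 of all 12659 genes passed, 1652 of them as higher. The median log2 fold change of the 24 genes was 0.00.

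The likeness of patterns was measured as the Pearson correlation of 18 group means of log2 CPM over 8283 genes with at least 50 reads per library on average, as a description. The genes most like Wtap were 1810013L24Rik (0.972), Ddx20 (0.966) and Rpp25l (0.965), and of the members Rbm15 came nearest to it (0.90). The genes most like Mettl3 were Spag6l (0.932), Eef1a1 (0.927) and Zfp955b (0.923), and those most like Mettl14 were 1600002K03Rik (0.742), Lmna (0.732) and Rasl11b (0.696). Mettl3 and Mettl14, which form the catalytic core, were unlike each other (-0.06), and Zc3h13 was most like Alkbh5 among the members (0.84). All points share the libraries and their axis.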

How the data were processed

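SLAM-seq data (QuantSeq 3′ end libraries) of male mESC were analysed in 71 libraries, grouped by the sample labels. Reads were quality-checked by the authors with FastQC 0.11.8 (submitters' processing notes), mapped to GRCm38.p6 and counted with SLAM-DUNK on 3′ UTR windows of an earlier annotation filtered to GENCODE M23, with up to 100 positions per read and a variant fraction of 0.2. The deposited raw counts (reads, multimapping reads, covered T, T-to-C conversions) are not normalized. The conversion rate was deposited by the authors as a fraction and equals conversions over covered T. Reads carry no molecular identifiers as far as stated, so errors were taken from replicates.

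Read counts were fitted with edgeR 4.0.16 (R 4.3.3, TMM, filterByExpr, quasi-likelihood) in 1 model over 18 groups, with adjusted p over all genes and a threshold of 0.01. Conversions were fitted likewise with log T coverage as offset for genes with coverage above 100 in every labelled library, with a threshold of 0.05. Exponential decays fixed at 1 at 0 h were fitted to background-subtracted mean rates (half-life 0.67 to 18 h, residual standard error at most 0.3), and per series of same-numbered libraries, where the residual limit was not applied, with limma 3.58.1. Gene positions and transcripts came from the GENCODE annotation of GRCm38. Alternatives were DESeq2 1.42.0, other scaling, no filter, removal of multimapping reads, a replicate block and leaving out replicates. Scripts were tested on simulated data.

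All 10 members are named. Other pathway genes are named when they passed, at most 8 by size. For Mettl3, Mettl14 and Wtap the 3 genes most alike are named. The members and lists were chosen with earlier results of these data known. In read counts, replicate numbers showed little pairing of libraries across treatments. The correlations of their deviations over genes ran from -0.08 to 0.27 in 35 pairs, with 1 above 0.1. No 2 replicates agreed within sampling noise (lowest chi-square per degree of freedom 2.80 over 105 pairs).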

Additional observations from a re-analysis of the deposited data

Results flagged for a closer look

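Of 171 groups of 4 values examined for the 9 members (CPM per group of libraries and half-lives per series), 12 held a value that stood apart from the other 3 by Dixon's criterion, where chance gives about 1 in 20, or 8.55. In CPM, with the mean of the other 3 libraries after it, these were the lowest Wtap library with STM2457 at 1.5 h (replicate 2, 253.85 against 268.31) and at 5.3 h (replicate 4, 264.95 against 290.5), the highest Virma library of unlabelled DMSO cells (replicate 1, 41.44 against 35.26), the lowest Rbm15 library in DMSO at 5.3 h (replicate 1, 61.49 against 69.64), the lowest Cbll1 libraries in DMSO at 0 h (replicate 3, 26.84 against 41.23) and 2.3 h (replicate 4, 22.32 against 25.65), the lowest Fto library with STM2457 at 2.3 h (replicate 3, 78.41 against 98.7) and the lowest Alkbh5 library with STM2457 at 5.3 h (replicate 1, 123.72 against 150.63). DMSO replicate 4 at 12 h was the highest library in both Zc3h13 (66.02 against 54.61) and Alkbh5 (195.19 against 152.0). Among half-lives, series 2 was the highest for Rbm15 in DMSO (5.21 h against 2.31 h) and for Cbll1 with STM2457 (3.94 h against 1.56 h).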

How the results depend on the processing

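For the mean over the chase, Wtap, Zc3h13 and Rbm15 passed in all 15 alternatives, at log2 fold changes of 0.74 to 1.29, 0.29 to 0.52 and 0.55 to 0.64. Cbll1 passed in 13 and Alkbh5 in 11 of 15, and Mettl3, Mettl14, Virma and Fto in none. Alkbh5 was at 0.10 without the libraries over 1 SD on the axis (edgeR adjusted p 0.0835). That setting, like the axis covariate, was chosen after seeing the data, and it leaves 1 library per treatment at 1 h, assumed to vary like the others. Of DMSO drifts, with the axis covariate Zc3h13 (-0.157) and Cbll1 (0.096) turned their sign. The replicate block changed no call of a member, but the labels do not say what libraries of the same number share. With this block 1 gene passed for the label retained.

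Counts of all genes called varied with the setting as follows, some of them by more than 1.5 times, with causes not tested. With the axis covariate, 679 genes in place of 433 differed in change over the chase, 2106 in place of 3274 drifted in DMSO (31% in place of 47.9% upward), and 191 and 215 in place of 65 and 66 differed between 0 h and unlabelled cells in DMSO and with STM2457. Without libraries over 1 SD these last counts were 99 and 216, and with DESeq2 112 and 125. For the label retained, 1 gene passed with T coverage above 1000 and 3 with the library-wide rate removed, in place of 0, and the mean rate called 532 in place of 815 with the latter. Leaving out single replicates gave 2747 to 3504 genes for the mean, 300 to 428 for the change, 2103 to 3309 (lowest without DMSO replicate 2) and 908 to 1848 (975, 908 and 1082 without STM2457 replicates 1, 2 and 4) for the drifts, 20 to 73 and 12 to 76 for the label in DMSO and STM2457, 2138 to 4829 calls summed over single times in place of 3680, 0 for the rate at 0 h, 0 to 1 for the label retained, 573 to 829 for the mean rate and 0 for half-lives. Over the 8 other alternatives, calls at single times ran from 154 to 392 at 0 h (213 as reported), 0 to 450 at 1 h (194), 402 to 1474 at 1.5 h (1035), 165 to 497 at 2.3 h (204), 143 to 373 at 3.5 h (164), 159 to 839 at 5.3 h (563), 258 to 593 at 8 h (296), 624 to 1165 at 12 h (685) and 107 to 468 in unlabelled cells (326). Half-life ratios stayed above 1 under all 13 settings for Alkbh5 (log2 0.45 to 0.73) and Wtap (0.36 to 0.71), and below 1 for Mettl3 (-0.97 to -0.26). Depth limits Mettl3, with 69 to 239 reads per library.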
